A study of Mus musculus with 3 samples.

Results

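*Cd226*, *Tigit*, *Cd96*, *Crtam* and *Pvrig* encode the lymphocyte receptors that bind nectins and nectin-like molecules, and they are 5 of the 32285 genes counted in these libraries. They were taken by gene symbol, and each was present once. In the GENCODE annotation of GRCm38, the mouse build that the labels name, *Tigit* (ENSMUSG00000071552) lies at chr16:43648867-43664146 and *Cd96* (ENSMUSG00000022657) at chr16:46035657-46120251, both on the minus strand, with 54 genes in the 2371.5 kb between them. *Cd226* (ENSMUSG00000034028) lies at chr18:89176967-89272229 on the plus strand, *Crtam* (ENSMUSG00000032021) at chr9:40969691-41004628 on the minus strand and *Pvrig* (ENSMUSG00000109713) at chr5:138341961-138343557 on the plus strand. No other annotated gene overlaps any of the 5, so their reads compete with no overlapping or antisense gene.

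CD226 is an activating receptor of NK cells and T cells that binds the poliovirus receptor, encoded by *Pvr*, and nectin-2 on other cells. TIGIT and CD96 compete with CD226 for the poliovirus receptor, TIGIT and PVRIG compete for nectin-2, and these competitors are commonly counted as inhibitory, CD96 less uniformly than the others. CRTAM, which is induced when NK cells and CD8+ T cells are activated, binds the nectin-like adhesion molecule encoded by *Cadm1*, and it is counted with the activating receptors here.

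The cells were tumor-infiltrating leukocytes (TILs) of wild-type C57BL/6 Kaede mice, whose cells all carry a green fluorescent protein that violet light turns red. The mice carried subcutaneous tumors of MC38-Ova, an ovalbumin-expressing version of a mouse colon adenocarcinoma line, grown from 250000 injected cells, and every library is labelled as treated with an isotype control, so that no library is untreated. Tumors were photoconverted on day 13 and harvested on day 15, 48 h later. Live Kaede+ CD45+ TER119- cells, from which CD11b+ NK1.1- myeloid cells had been gated out, were sorted as Kaede-green (KG+, arrived after photoconversion; 2 libraries, Kaede-green 1 and Kaede-green 2) or Kaede-red (KR+, already in the tumor; 1 library) and run on 10x 3' chips. Whether cells of several animals were pooled in a library was not stated in the sources used here. The p-values therefore measure how class differences within a library vary over these 3 libraries (2 Kaede-green and 1 Kaede-red).

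Promoters of *Tigit*, *Cd96*, *Crtam* and *Pvrig* were looked up in the RefSeq table used here, and that of *Cd226* was not looked up. The promoters of *Tigit*, *Cd96* and *Pvrig*, 3 of the 5 genes, were present. All 3 are shown, without regard to how the genes differed between cell classes. Each sequence is the 250 bases before RefSeq's transcription start on the gene's own strand (GRCm38.p6), with matches to the RUNX motif in capitals; the windows are chr16:43664185-43664434 (minus strand) for *Tigit*, chr16:46120249-46120498 (minus strand) for *Cd96* and chr5:138341681-138341930 (plus strand) for *Pvrig*.
Tigit: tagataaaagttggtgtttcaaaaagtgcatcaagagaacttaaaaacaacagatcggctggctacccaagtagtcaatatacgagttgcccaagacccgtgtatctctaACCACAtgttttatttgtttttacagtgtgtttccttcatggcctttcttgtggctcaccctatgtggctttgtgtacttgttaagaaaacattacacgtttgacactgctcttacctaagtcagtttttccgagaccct
Cd96: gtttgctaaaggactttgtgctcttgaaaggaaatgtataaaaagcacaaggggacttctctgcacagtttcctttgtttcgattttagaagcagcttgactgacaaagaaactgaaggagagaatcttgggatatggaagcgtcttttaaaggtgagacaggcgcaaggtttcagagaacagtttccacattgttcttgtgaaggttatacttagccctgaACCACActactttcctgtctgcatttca
Pvrig: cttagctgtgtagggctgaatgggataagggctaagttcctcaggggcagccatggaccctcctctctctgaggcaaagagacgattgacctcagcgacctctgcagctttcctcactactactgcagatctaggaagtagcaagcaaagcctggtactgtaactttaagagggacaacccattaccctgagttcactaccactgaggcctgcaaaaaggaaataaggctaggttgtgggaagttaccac
Both strands were searched for the letters of 5 lymphocyte factor motifs, forkhead (GTAAACA), RUNX (TGTGGT), T-box (AGGTGT), ETS (CCGGAA) and AP-1 (TGANTCA). *Tigit* held 1 match, RUNX on the opposite strand (ACCACA) starting 140 bases before the start site, and *Cd96* held 1, the same letters starting 28 bases before it. *Pvrig* held 0 matches, and no matches overlapped one another. Among 32851 mouse promoter windows of the same length, 14% held the RUNX letters, 3.17% the forkhead, 11.8% the T-box, 12% the ETS and 6.75% the AP-1 letters. A match is a match of letters and not a measured binding site.

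Cells were placed in classes by their raw UMIs (unique molecular identifiers, 1 per captured transcript). NK cells held at least 1 UMI of *Ncr1*, which encodes NKp46, and at most 1 of *Cd3e*. NK-gated cells with at least 2 UMIs of *Rora* and 0 of *Eomes* were called ILC-like (499 cells), and the other 7875 were NK cells, of which 796 held *Itgam* (the gene of CD11b) without *Itga1* (CD49a), 2137 held *Itga1* without *Itgam* and 4830 held neither. T cells held at least 2 UMIs of *Cd3e*. CD8+ T cells also held *Cd8a* and *Cd8b1* (9102 cells), Treg held *Foxp3* (1629 cells), and other CD4+ T cells held *Cd4* without *Foxp3*, *Cd8a* or *Cd8b1* (806 cells). The 296 cells that met the gates of both CD8+ T cells and Treg were left out of both classes. All 6 NK markers (*Klrb1c*, *Klrk1*, *Prf1*, *Gzma*, *Tyrobp* and *Fcer1g*) were above 20 CPM (counts per 1e6 UMIs of a class) in both NK classes and in ILC-like cells of every library, and 4 of 5 ILC1 markers passed 20 CPM in ILC-like cells of every library, against 1 in NK cells. The ILC1 markers did not set ILC-like cells (388 to 480 CPM in sum) apart from the 3 T cell classes (371 to 713 CPM), where 3 to 5 passed 20 CPM. Summed levels of 5 T cell markers were 4103 to 5312 CPM in the 3 T cell classes and 309 to 530 CPM in NK and ILC-like cells. Levels of 4 Treg markers summed to 5069 to 6341 CPM in Treg and to 1491 to 2844 CPM in other CD4+ T cells, a class in which Treg whose *Foxp3* was not captured would also fall, and their part in the results was not tested.

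The 3 libraries held 10498 to 12327 barcodes and 87193225 to 175848894 UMIs, with medians of 6438 to 11079 UMIs per barcode, and Kaede-red was the deepest. Pairs of libraries shared 20, 28 and 36 barcodes. After filtering and doublet removal 30550 cells remained. Levels are CPM of UMIs summed over the cells of a class in 1 library, shown with SD over the 3 libraries, and single sums carry exact Poisson 95% intervals that cover counting error only. Differences between classes were tested on the sums with edgeR's quasi-likelihood test with the library as a block, and p-values were adjusted by the Benjamini-Hochberg method over all genes tested.

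The activating receptor *Cd226* was highest in ILC-like cells. In Kaede-green 1, Kaede-green 2 and Kaede-red these held 97.2, 102 and 96.2 CPM, and CD8+ T cells held 58.9, 71.0 and 64.1 CPM. Other CD4+ T cells held 67.6, 60.8 and 51.1 CPM, so that all 3 libraries of ILC-like cells lay above every CD8+ and CD4+ T cell value, whereas those T cell classes overlapped (64.7 ± 6.07 and 59.8 ± 8.30 CPM, SD, n = 3). NK cells were lower, at 24.4 ± 5.45 CPM with *Itga1*, 23.7 ± 8.24 CPM with *Itgam* and 21.9 ± 5.503 CPM with neither, and these ranges overlapped each other. Treg were lowest by their mean, with 18.02, 16.7 and 10.1 CPM (14.9 ± 4.26, SD, n = 3), which overlapped the NK cells with neither integrin and the *Itgam*+ NK cells.

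*Crtam*, the other activating receptor, divided the classes differently, with overlapping levels in NK, ILC-like and CD8+ T cells and under 5 CPM in both CD4+ classes. CD8+ T cells held 24.4, 26.8 and 14.9 CPM, and NK cells with neither integrin held 16.3, 20.9 and 30.3 CPM. ILC-like cells (19.8 ± 3.63 CPM), *Itga1*+ NK cells (19.8 ± 2.02 CPM) and *Itgam*+ NK cells (14.0 ± 5.47 CPM) overlapped these (SD, n = 3). Treg held 1.36, 3.76 and 2.08 CPM, from 4, 33 and 13 UMIs, and lay below all of the NK and CD8+ values. Other CD4+ T cells held 0.945, 2.86 and 0.837 CPM, from 2, 7 and 1 UMIs.

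Among the competitors of CD226, *Tigit* was highest in Treg, with 22.8, 17.7 and 32.6 CPM, and no other class reached these values in any library. *Itgam*+ NK cells (10.51, 11.3 and 7.96 CPM) and other CD4+ T cells (9.45, 10.2 and 9.21 CPM) came next and overlapped. CD8+ T cells held 7.07, 6.87 and 8.13 CPM, and NK cells with neither integrin 9.22, 6.98 and 4.03 CPM. The lowest levels were those of *Itga1*+ NK cells, with 4.48, 5.12 and 2.73 CPM, and of ILC-like cells, with 4.42, 2.48 and 2.59 CPM. The ILC-like values rest on 4, 5 and 11 UMIs, and their Poisson intervals were 1.20 to 11.3, 0.804 to 5.78 and 1.29 to 4.63 CPM, so a difference between these last classes was not detectable at this depth.

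*Cd96* was highest by its mean in CD8+ T cells and low in Treg. CD8+ T cells held 70.4, 64.2 and 94.3 CPM, ILC-like cells 65.2, 45.5 and 63.7 CPM, and *Itga1*+ NK cells 57.7, 43.1 and 62.7 CPM. Other CD4+ T cells (45.5 ± 6.23 CPM), *Itgam*+ NK cells (37.1 ± 2.10 CPM) and NK cells with neither integrin (36.0 ± 9.67 CPM) followed, each overlapping its neighbor (SD, n = 3). Treg, with 8.50, 11.1 and 15.0 CPM, stood apart below all of them.

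*Pvrig*, the nectin-2 receptor, separated CD8+ T cells from NK cells and Treg. Treg held 16.3, 13.3 and 24.3 CPM, and the 4 NK and ILC-like classes had means of 15.8 to 17.7 CPM with overlapping ranges. CD8+ T cells held 3.96, 4.47 and 7.06 CPM, below every NK, ILC-like and Treg value. Other CD4+ T cells spread the most, with 1.42, 5.30 and 16.7 CPM from 3, 13 and 20 UMIs. The Poisson interval of the Kaede-red value, 10.2 to 25.9 CPM, did not reach those of Kaede-green 1 (0.292 to 4.14 CPM) or Kaede-green 2 (2.82 to 9.07 CPM). The 4 Treg markers summed to 1491, 1748 and 2844 CPM in other CD4+ T cells of the 3 libraries, also highest in Kaede-red. Their part in this spread was not tested.

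**Figure D1:**
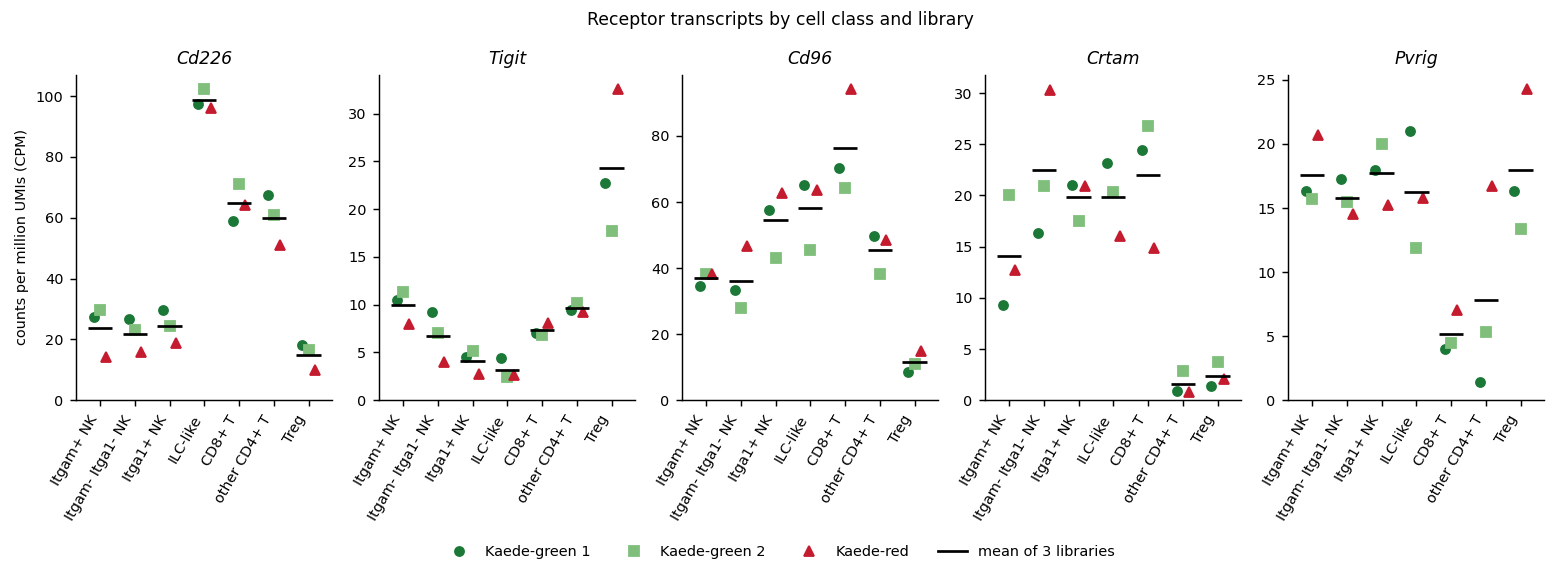
Level of each receptor gene (vertical axis, CPM from 0, with its own scale per gene) in 7 cell classes (horizontal axis), with 1 point per library and a bar at the mean of the 3 libraries. ILC-like cells lie at 96.2 to 102 CPM of *Cd226*, above all other classes, and Treg lie highest for *Tigit* and lowest for *Cd226* and *Cd96* by their means.

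The comparison of *Itga1*+ with *Itgam*+ NK cells asks how the receptors differ between integrin states that the study used to order NK cells by their time in the tumor. *Cd96* rose and *Tigit* fell, and 2 of the 5 receptors passed the test, where 32.3% of the 9673 genes tested did. *Cd96* was higher by 0.60 on the log2 scale (SE 0.14, adjusted p = 0.0091), 1.52-fold, and *Itga1*+ cells had the higher CPM in each of the 3 libraries. *Tigit* fell by 1.15 (SE 0.30, adjusted p = 0.0158), with log2 CPM ratios of -1.21, -1.15 and -1.67 in Kaede-green 1, Kaede-green 2 and Kaede-red. *Cd226* (0.08, SE 0.16, adjusted p = 0.77), *Crtam* (0.54, SE 0.26, adjusted p = 0.15) and *Pvrig* (0.20, SE 0.20, adjusted p = 0.49) did not pass. The Kaede-red library gave only 75 *Itgam*+ NK cells, with 5 UMIs of *Tigit* and 24 of *Cd96*, and *Itga1*+ cells were deeper (median 9080, 11502 and 25056 UMIs against 5342, 6712 and 6658). In cells of 4000 to 16000 UMIs neither gene passed, at 0.32 for *Cd96* and -0.71 for *Tigit*, and neither passed without Kaede-green 1, at 0.47 and -1.18. *Tigit* also missed the threshold without Kaede-green 2 (-1.25) and with DESeq2 (-1.17), and *Crtam* passed without Kaede-green 2 (1.11). The 5 myeloid markers (*Csf1r*, *Lyz2*, *C1qa*, *C1qb* and *Cd68*), all detected, summed to 14.4, 402 and 189 CPM in *Itgam*+ NK cells and to 27.7, 44.3 and 6.64 CPM in *Itga1*+ cells, with 4 of 5 above 20 CPM in *Itgam*+ cells of Kaede-green 2. The summed myeloid markers were thus higher in *Itgam*+ cells of Kaede-green 2 and Kaede-red and lower in those of Kaede-green 1, whereas *Tigit* was higher in *Itgam*+ cells of each library, and their part in the result was not tested. The sum of 3 mast cell markers, mostly *Cma1*, also differed. It was 118, 70.6 and 11.1 CPM in *Itgam*+ and 1.20 to 5.04 CPM in *Itga1*+ NK cells. Of the 3 markers, 2, 1 and 2 had no UMI in the *Itgam*+ sums, so they did not differ together. The part of these markers in the result was not tested.

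Among NK-gated cells, the ILC-like class stood out by *Cd226*. It was 4.18-fold higher than in the other NK cells (log2 2.06, SE 0.13, adjusted p = 5.76e-08), with 97.2 against 27.4, 102 against 24.2 and 96.2 against 17.8 CPM in the 3 libraries. This was the only 1 of the 5 receptors that passed, where 5.15% of 11718 genes did. *Tigit* (log2 -0.90, SE 0.35, adjusted p = 0.20) was lower and *Cd96* (0.33, SE 0.14, adjusted p = 0.27) higher in ILC-like cells in each of the 3 libraries without passing. *Crtam* (-0.25, SE 0.20, adjusted p = 0.67) and *Pvrig* (-0.14, SE 0.18, adjusted p = 0.82) did not pass and had no common direction. Without Kaede-red, *Cd96* passed at 0.56, as it did in cells of 4000 to 16000 UMIs at 0.60. All 5 T cell markers but 1 in Kaede-green 1 were detected in ILC-like cells, and the 5 summed to 503, 530 and 491 CPM there and to 402, 445 and 309 CPM in NK cells, against 4709 to 5312 CPM in CD8+ T cells. *Cd226* was higher in ILC-like cells than in CD8+ T cells, Treg and other CD4+ T cells of every library. Other T cells were not compared, and the part of T cells in the result was not tested.

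Between CD8+ T cells and NK cells, 3 of the 5 receptors passed, where 27.0% of 13348 genes did. *Cd226* was 2.73-fold higher in CD8+ T cells (log2 1.45, SE 0.13, adjusted p = 0.0020) and *Cd96* 1.73-fold higher (log2 0.79, SE 0.10, adjusted p = 0.0047), which did not pass without the library block (0.75). *Pvrig* fell by 1.74 (SE 0.20, adjusted p = 0.0039), 3.34-fold, and in all 3 libraries CD8+ T cells were the lower class, at 3.96 against 17.4, 4.47 against 16.8 and 7.06 against 15.0 CPM. *Tigit* (0.33, SE 0.30, adjusted p = 0.47) was close to equal in the Kaede-green libraries (log2 CPM ratios -0.24 and 0.00) and higher in CD8+ T cells of Kaede-red (1.34). *Crtam* was also split by library, higher in CD8+ T cells of both Kaede-green libraries (0.58 and 0.43) and lower in those of Kaede-red (-0.71), with a fitted difference of 0.03 (SE 0.30, adjusted p = 0.96), and it passed without Kaede-red at 0.49.

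Treg and CD8+ T cells differed in all 5 receptors, where 25.3% of 12522 genes passed, and the 5 divided in direction. *Crtam* fell by 3.17 (SE 0.23, adjusted p = 0.00015) in Treg, 8.99-fold, *Cd96* by 2.82 (SE 0.14, adjusted p = 3.52e-05), 7.06-fold, and *Cd226* by 2.29 (SE 0.18, adjusted p = 0.00019), 4.90-fold. *Pvrig* rose by 1.66 (SE 0.15, adjusted p = 0.00042), 3.15-fold, and *Tigit* by 1.57 (SE 0.15, adjusted p = 0.00053), 2.96-fold. All 5 differences had the same direction in each of the 3 libraries. Other CD4+ T cells, which share the CD4 lineage with Treg, gave a like division with 4 of the 4 tested receptors past the threshold, where 25.1% of 9747 genes passed. *Cd226* fell by 2.06 (SE 0.14, adjusted p = 6.11e-06), *Cd96* fell by 2.00 (SE 0.19, adjusted p = 3.76e-05), *Tigit* rose by 1.17 (SE 0.22, adjusted p = 0.0033) and *Pvrig* rose by 1.33 (SE 0.37, adjusted p = 0.0227). *Crtam*, with 10 UMIs in all of the other CD4+ T cells, was left out by the filter on low counts. The *Pvrig* call rests on Kaede-green 1, where Treg exceeded other CD4+ T cells by 3.32 on the log2 CPM scale against 1.28 and 0.51 in the others. Without it the difference was 0.86 and did not pass, nor did it pass without Kaede-green 2 (1.34) or without the library block (1.37). In Kaede-red, where the difference was smallest, the Treg markers of other CD4+ T cells summed to 2844 CPM, against 1491 and 1748 in the others. Their part in the result was not tested. The 2 comparisons share the Treg sums and are not independent of each other.

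CD8+ T cells with both *Pdcd1* (PD-1) and *Havcr2* (TIM-3), 2 inhibitory receptors that mark chronically stimulated T cells, were set against CD8+ T cells with neither (3147 and 1891 cells). Of the 5 receptors 3 passed, all higher with *Pdcd1* and *Havcr2*, where 43.1% of 11059 genes passed. *Tigit* rose 2.30-fold (log2 1.20, SE 0.21, adjusted p = 0.0034), from 3.14, 3.11 and 4.96 CPM to 10.3, 8.70 and 8.57 CPM. *Cd96* rose 1.55-fold (log2 0.64, SE 0.10, adjusted p = 0.0017), from 43.9, 41.6 and 67.1 CPM to 87.6, 71.6 and 95.8 CPM. *Cd226* rose 1.33-fold (log2 0.41, SE 0.11, adjusted p = 0.0185), from 43.1, 48.9 and 54.6 CPM to 63.1, 84.8 and 65.0 CPM, and it did not pass without Kaede-green 2 (0.27). For all 3 genes the groups did not overlap between their libraries. *Pvrig* was 0.39 higher (SE 0.19, adjusted p = 0.14), higher in each library without passing. *Crtam* (-0.12, SE 0.31, adjusted p = 0.77) was higher in cells with *Pdcd1* and *Havcr2* in both Kaede-green libraries and lower in Kaede-red, at 10.3 against 22.4 CPM. Cells with both genes were deeper, with medians of 12280, 12508 and 17473 UMIs against 8742, 9254 and 10126.

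**Figure D2:**
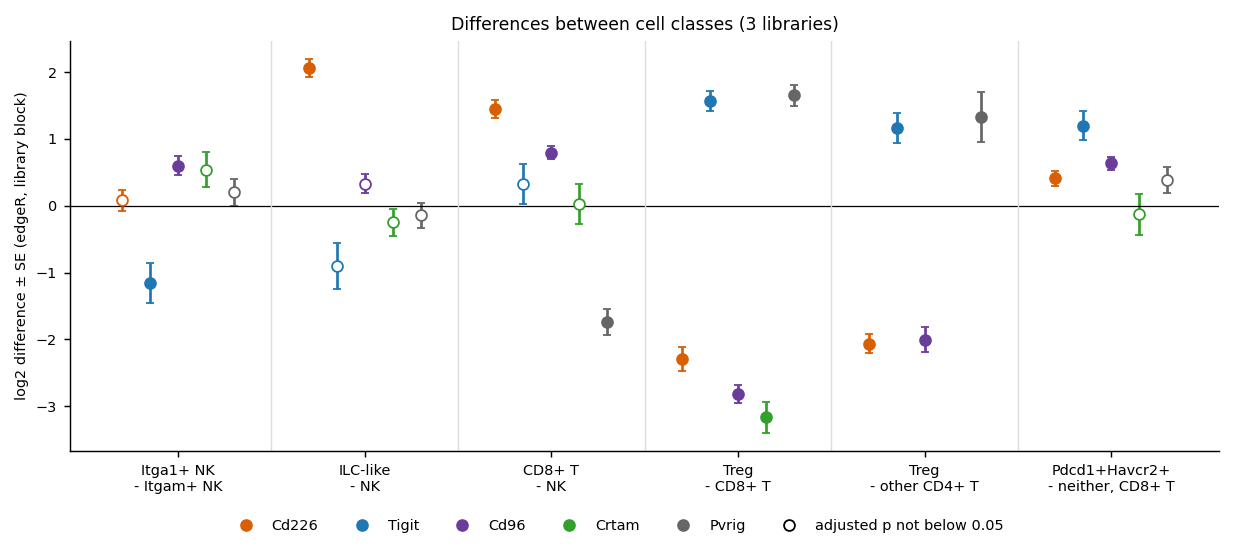
Difference between the named classes for each receptor (vertical axis, log2, first class minus second, edgeR estimate ± SE over 3 libraries) in 6 comparisons (horizontal axis). Filled points passed an adjusted p of 0.05; *Crtam* was not tested between Treg and other CD4+ T cells, and the Treg comparisons show *Tigit* and *Pvrig* above 0 and *Cd226* and *Cd96* below it.

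Activating and inhibitory members were then set against each other as ratios of summed UMIs within a class and library, with 0.5 added to each sum. Each ratio also holds how well each transcript's 3' end is captured, so ratios were compared between classes and not with an even balance. *Cd226* over *Tigit*, activating over inhibitory receptor of the same ligand, was highest in ILC-like cells, with 19.7, 37.7 and 35.6, and in CD8+ T cells was 8.32, 10.3 and 7.88. Other CD4+ T cells held 7, 5.86 and 5.35, *Itga1*+ NK cells 6.45, 4.74 and 6.85, NK cells with neither integrin 2.88, 3.31 and 3.92, and *Itgam*+ NK cells 2.56, 2.58 and 1.73. Treg were the lowest of the 7 classes in each library, at 0.793, 0.942 and 0.311. The classes of this order other than *Itga1*+ NK cells and other CD4+ T cells did not overlap their neighbors. The ILC-like ratios rest on only 20 UMIs of *Tigit* over the 3 libraries, so their size is imprecise.

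The log2 ratio of *Cd226* to *Tigit* differed between classes in the same direction in 3 of 3 libraries in all 6 comparisons. It was higher by 1.40 ± 0.56 in *Itga1*+ than in *Itgam*+ NK cells, by 2.90 ± 0.45 in ILC-like than in NK cells and by 1.14 ± 0.55 in CD8+ T cells than in NK cells (SD, n = 3). The ILC-like difference rests on 20 UMIs of *Tigit* in ILC-like cells. In Treg the ratio fell by 3.84 ± 0.72 against CD8+ T cells and by 3.30 ± 0.75 against other CD4+ T cells, and in CD8+ T cells with *Pdcd1* and *Havcr2* it fell by 0.78 ± 0.33. An exact two-sided sign-flip permutation test gave p = 0.25 for each of these 6, which is the smallest value that 3 libraries allow, so the design cannot reach 0.05 and the 18 ratio comparisons made were not adjusted further. *Cd226* over *Cd96* gave a different order. It fell by 0.47 ± 0.12 in *Itga1*+ against *Itgam*+ NK cells, but turned to 0.048 in cells of 4000 to 16000 UMIs. It rose by 1.65 ± 0.61 in ILC-like against NK cells and by 0.65 ± 0.45 in CD8+ T cells against NK cells (the fall and both rises in 3 of 3 libraries each), and it had no common direction in the Treg or the *Pdcd1* and *Havcr2* comparisons. The sum of the activating genes over the sum of the inhibitory genes was 1.33, 2.05 and 1.37 in ILC-like cells, the highest of the 7 classes in each library, and 0.409, 0.486 and 0.170 in Treg, the lowest in each. It differed by 1.22 ± 0.23 between ILC-like and NK cells, by 0.56 ± 0.18 between CD8+ T and NK cells, by -1.61 ± 0.42 between Treg and CD8+ T cells and by -1.60 ± 0.40 between Treg and other CD4+ T cells on the log2 scale (SD, n = 3), each in 3 of 3 libraries. In CD8+ T cells with *Pdcd1* and *Havcr2* it fell by 0.38 ± 0.20 in 3 of 3 libraries, and by 0.13 in cells of 4000 to 16000 UMIs. It differed by 0.01 ± 0.29 between *Itga1*+ and *Itgam*+ NK cells, with no common direction. By their means, *Cd96* (54.5 against 37.1 CPM) and *Crtam* (19.8 against 14.0) were higher in *Itga1*+ cells and *Tigit* (4.11 against 9.93) was lower. *Cd226* (24.4 against 23.7) and *Pvrig* (17.7 against 17.6) were close to equal. The activating to inhibitory ratio is led by *Cd96* and *Cd226*, the genes with the most UMIs, in ILC-like, CD8+ T and other CD4+ T cells. In Treg *Tigit* (426 UMIs) and *Pvrig* (317) exceeded *Cd226* (262) and *Cd96* (216). In NK cells *Crtam* (2210) held about as many as *Cd226* (2154).

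**Figure D3:**
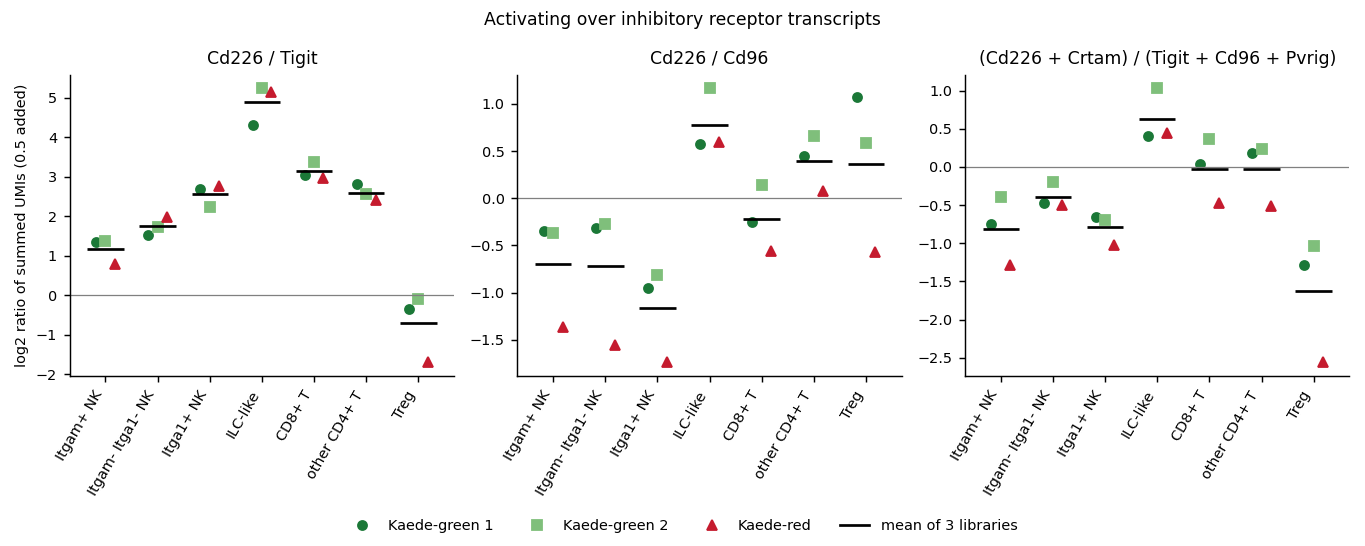
Log2 ratio of activating to inhibitory receptor UMIs (vertical axis, 0.5 added to each sum) in 7 cell classes, with 1 point per library and a bar at the mean. For *Cd226* over *Tigit*, ILC-like cells are highest, on 20 UMIs of *Tigit* over the 3 libraries, and Treg lowest in each library. The line at 0 marks equal UMIs, not equal transcript numbers.

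Kaede color compares cells that had been in the tumor for at least 48 h (KR+) with later arrivals (KG+). With 1 Kaede-red library there was no test, and a gene was counted only where Kaede-red differed at least 2-fold from both Kaede-green libraries, in the same direction and by more than they differed from each other. In all NK cells 1 of 5 receptors met this, *Tigit*, whereas 4.49% of 6754 genes at 10 CPM or more did. *Tigit* itself lay under 10 CPM there. It held 8.35 CPM in Kaede-green 1 (Poisson interval 7.08 to 9.79), 6.85 in Kaede-green 2 (5.87 to 7.94) and 3.21 in Kaede-red (2.77 to 3.71), log2 ratios of -1.38 and -1.09. In cells of 4000 to 16000 UMIs and with TMM scaling 0 of 5 receptors met the rule. The median log2 ratios of the genes at 10 CPM or more in NK cells were -0.17 and -0.16. Within *Itgam*+ NK cells the *Tigit* ratios were -0.29 and -0.40 and within *Itga1*+ NK cells -0.75 and -0.92, in the same direction and under 2-fold. In Kaede-red 1413 of 2913 NK cells were *Itga1*+, against 287 of 2472 and 437 of 2490. Kaede-red NK cells were also deeper (median 17517 UMIs against 6042 and 8066), which makes a UMI of *Itga1* easier to detect. In cells of 4000 to 16000 UMIs the *Itga1*+ counts were 312 of 1268 in Kaede-red, against 213 of 1976 and 281 of 2012. *Tigit* in Treg went the other way, to 32.6 CPM (28.3 to 37.4) in Kaede-red from 22.8 (17.7 to 28.9) and 17.7 (15.0 to 20.7), a rise under 2-fold.

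None of the 5 receptors met the 2-fold rule in *Itgam*+ NK cells, *Itga1*+ NK cells, ILC-like cells, CD8+ T cells or Treg, where 3.51%, 1.76%, 1.14%, 1.38% and 0.183% of genes at 10 CPM or more did. These shares do not cover the receptors under 10 CPM, which were *Tigit* in all of these classes but Treg, *Pvrig* in CD8+ T cells and *Crtam* in Treg. Smaller differences that exceeded the gap between the Kaede-green libraries included those of *Cd226* in Treg (log2 -0.84 and -0.72) and in *Itgam*+ NK cells (-0.86 and -0.98, from 9 UMIs in Kaede-red), of *Crtam* in CD8+ T cells (-0.72 and -0.85) and of *Pvrig* in CD8+ T cells (0.83 and 0.66). *Crtam* in CD8+ T cells held 14.9 CPM in Kaede-red (13.9 to 15.8), under the Poisson intervals of Kaede-green 1 (22.4 to 26.5) and Kaede-green 2 (25.2 to 28.4). For *Cd226* in ILC-like cells, where its level was highest, the log2 ratios were -0.02 and -0.09. In other CD4+ T cells, where 2.05% of genes at 10 CPM or more met the rule, none of the 5 did, and *Tigit*, *Crtam* and *Pvrig* lay under 10 CPM there by their means. The median log2 ratio of the genes at 10 CPM or more lay between -0.11 and 0.08 in these classes. Among the genes at 10 CPM or more, 53.1% in *Itgam*+ NK cells, 50.4% in CD8+ T cells and 30.7% in Treg lay beyond the gap between the Kaede-green libraries.

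**Figure D4:**
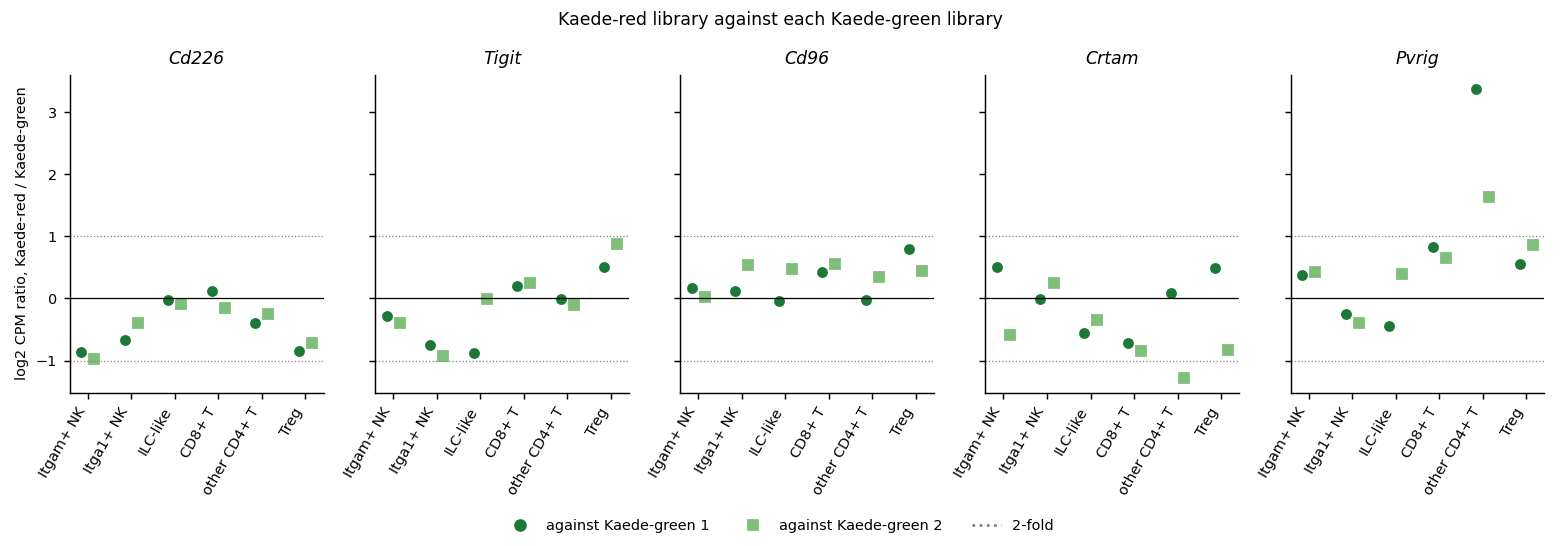
Log2 CPM ratio of the Kaede-red library to each Kaede-green library (vertical axis) in 6 cell classes for each receptor, with dotted lines at 2-fold. Points of the same class lie on the same side of 0 and apart from it for, among others, *Cd226* in Treg (-0.84 and -0.72), *Crtam* in CD8+ T cells (-0.72 and -0.85) and *Pvrig* in CD8+ T cells (0.83 and 0.66). No class has both points past 2-fold except *Pvrig* in other CD4+ T cells, where the Kaede-green libraries held 3 and 13 UMIs and differed by 1.74 themselves.

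Seen per cell, these receptors are sparse. Single shares are pooled over the cells of the 3 libraries, and their intervals cover the counting of cells, not differences between libraries. After thinning each cell to 2000 UMIs, which left out 1 cell or none per class except 2 CD8+ T cells, *Cd226* was seen in 14.8% of ILC-like cells (exact interval 11.8 to 18.3%), 12.1% of CD8+ T cells (11.4 to 12.8%), 4.69% of NK cells (4.23 to 5.18%) and 3.69% of Treg (2.82 to 4.72%). *Tigit* was seen in 5.96% of Treg (4.86 to 7.22%), 1.52% of CD8+ T cells, 1.19% of NK cells and 1 of 499 ILC-like cells. B-like cells, which should lack these receptors, gave 1.23% for *Cd226* (0.255 to 3.57%), 0.412% for *Cd96* and for *Crtam*, and 0 of 243 for *Tigit* and *Pvrig*, which allows a share of up to 1.23% at 3 counts, with an exact upper limit of 1.51%. *Crtam* in Treg (0.799%) was within this background, and its interval in *Itgam*+ NK cells (0.781 to 2.62%) overlapped that of B-like cells (0.010 to 2.27%). *Pvrig* in CD8+ T cells (1.15%) and *Tigit* in CD8+ T cells with neither *Pdcd1* nor *Havcr2* (0.899%) lay under the exact limit of 1.51%. That limit is set by the number of B-like cells, 243, so it cannot tell a smaller share from background. Summed UMIs of *Pvrig* were 714 in CD8+ T cells (mean 5.16 CPM) and 0 in B-like cells. The intervals of *Tigit* in all CD8+ T cells (1.28 to 1.79%) and in other CD4+ T cells (1.23 to 3.36%) reached below the limit. So did that of *Pvrig* in other CD4+ T cells (0.683 to 2.43%). In Treg the intervals of *Cd226* and of *Cd96* (1.81 to 3.40%) overlapped those of B-like cells (up to 3.57% and 2.27%). Thinned to 4000 UMIs, *Cd226* in Treg (4.51 to 6.88%) no longer overlapped B-like cells (0.016 to 3.48%). *Cd96* still did at that depth (3.86 to 6.09% against 0.393 to 5.45%). At 2000 UMIs *Tigit* was above this background in *Itgam*+ NK cells (3.14%, 2.04 to 4.60%). Its interval in NK cells with neither integrin (1.72%, 1.37 to 2.13%) reached below the exact limit. All NK cells (1.19%, 0.966 to 1.46%), *Itga1*+ NK cells (0.655%) and ILC-like cells lay under it. Thinned to 4000 UMIs, the *Tigit* interval of *Itgam*+ NK cells (2.64 to 5.73%) overlapped that of B-like cells (0.016 to 3.48%). Each class was thinned in a random draw of its own, so the shares of the NK classes need not average to that of all NK cells. Without thinning, the shares with *Cd226* were 60.5% of ILC-like cells, 43.7% of CD8+ T cells, 16.7% of NK cells, 11.97% of Treg and 2.06% of B-like cells, whose median depths differ. *Tigit* without thinning was seen in 21.4% of Treg, 9.35% of CD8+ T cells, 6.18% of NK cells and 0.412% of B-like cells. In CD8+ T cells thinned to 4000 UMIs, *Cd96* was seen in 30.8%, 25.0% and 38.7% of cells with *Tigit* and in 22.4%, 21.2% and 30.1% of those without, whereas *Cd226* was seen in 20%, 28.1% and 17.7% of cells with *Tigit* and in 19.6%, 21.6% and 21.6% without, which had no common direction. The *Cd96* shares did not keep their direction in other classes. In CD8+ T cells with *Pdcd1* and *Havcr2* they were 25.0%, 34.1% and 25.3% with *Tigit* and 28.9%, 25.8% and 31.5% without, lower with *Tigit* in 2 of 3 libraries, and in NK cells they were 12.05%, 12.31% and 21.43% with *Tigit* and 13.81%, 11.05% and 19.96% without, lower with *Tigit* in Kaede-green 1 alone. The shares with *Tigit* rest on few cells, 6 of 24, 14 of 41 and 20 of 79 in the former and 10 of 83, 8 of 65 and 12 of 56 in NK cells. A difference between classes was not tested.

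The nectin genes and *Cadm1* were scarce in these sorted lymphocytes. *Pvr* was not, with means of 13.1 CPM in CD8+ T cells, 15.3 in Treg and 6.94 in NK cells, where *Tigit* had 7.36, 24.3 and 6.14 CPM. The CD45+ sort excludes tumor cells, which can also carry the ligands. Of 6 ligand genes, *Pvr* alone passed the filter on low counts in all 6 comparisons. It was higher in CD8+ T cells than in NK cells (log2 0.91, SE 0.13, adjusted p = 0.0077), with 14.0, 14.8 and 10.4 against 8.85, 7.78 and 4.195 CPM, and it fell by 1.03 (SE 0.13, adjusted p = 0.00065) in CD8+ T cells with *Pdcd1* and *Havcr2*, from 17.3, 19.96 and 15.96 to 8.79, 10.9 and 8.66 CPM. In that comparison *Pvr* therefore went down while its receptors *Tigit*, *Cd96* and *Cd226* went up. The few myeloid-like cells left by the sort (114 cells) held the most, 38.8, 71.0 and 59.8 CPM, of which the lowest rests on 9 UMIs. A pair of predicted genes lies on the opposite strand of *Pvr*; 10x 3' reads are counted by strand, so they should not add to it. *Cadm1* is overlapped by a predicted gene on its own strand, which leaves its count uncertain. *Nectin1* was higher in Treg than in CD8+ T cells (log2 2.51, SE 0.57, adjusted p = 0.0186), on 7 to 11 UMIs per library. *Nectin2*, *Nectin3* and *Nectin4* were not tested in any comparison for low counts, and *Cadm1*, the ligand of CRTAM, was tested once, between CD8+ T and NK cells, without passing (-0.59, SE 0.36, adjusted p = 0.29).

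Of 12 signaling and adhesion partners, 1 was higher and 5 lower in *Itga1*+ than in *Itgam*+ NK cells, where 32.3% of all genes passed. *Itgb2*, a chain of LFA-1, the integrin with which CD226 associates, fell by 1.34 (SE 0.09, adjusted p = 2.00e-05) and *Fyn*, the kinase that phosphorylates CD226, by 1.00 (SE 0.09, adjusted p = 9.73e-05), while *Ptpn6*, the phosphatase SHP-1, rose by 0.65 (SE 0.11, adjusted p = 0.0018). In ILC-like against NK cells, where 5.15% of genes passed, 0 were higher and 1 was lower, *Fyn*, which fell by 0.67 (SE 0.14, adjusted p = 0.0083). In CD8+ T cells against NK cells, where 27.0% passed, 1 was higher (*Ptpn6*, 0.45) and 2 lower, *Plcg2* (-2.80, SE 0.12, adjusted p = 0.00051) and *Inpp5d* (-0.88, SE 0.12, adjusted p = 0.0059), which encodes SHIP1, a phosphatase used by TIGIT. Treg had 2 higher and 4 lower than CD8+ T cells, where 25.3% passed, led by *Grb2* (0.86), an adaptor of both CD226 and TIGIT, and by *Ptpn6* (-1.24) and *Prkcq* (-1.24). Against other CD4+ T cells they had 2 higher and 4 lower of 11 tested, where 25.1% passed, led by *Prkcq* (-1.41) and *Ptpn6* (0.52), so *Ptpn6* differed in opposite directions in the Treg comparisons. CD8+ T cells with *Pdcd1* and *Havcr2* had 5 higher, among them *Ptpn6* (0.80) and *Itgb2* (0.68), and 4 lower, among them *Prkcq* (-0.69) and *Fyn* (-0.57), where 43.1% of genes passed. The medians of the list lay between -0.23 and 0.13 on the log2 scale, beside medians of all genes between -0.03 and 0.00.

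Over 18 points, 6 disjoint classes in 3 libraries, the genes whose log2(CPM + 1) followed each receptor most closely among 6045 included *Mapkapk3* (r = 0.82) and *Stk24* (0.81) for *Cd226*, *Hbs1l* (0.95), *Prdm1* (0.93) and *Vmp1* (0.92) for *Tigit*, and *B4galnt1* (0.92), *Plac8* (0.86) and *Nrgn* (0.86) for *Cd96*. For *Crtam* they were *Nedd4*, *Ier5l* and *Chst12* (0.93 each), and for *Pvrig* *Golga7* (0.91), *Fgl2* (0.89) and *Cuta* (0.86). Among the receptors themselves, *Cd96* followed *Cd226* (0.66) and *Crtam* (0.60) and ran against *Tigit* (-0.76), whereas *Pvrig* followed none of the others (-0.50 to 0.13). Points of 1 library share its depth and those of 1 class its cells, so these values describe likeness over few classes.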

How the data were processed

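Single-cell RNA sequencing of KG+ and KR+ TILs gave 3 libraries. The deposited tables hold raw UMI counts for every gene in every barcode that Cell Ranger called a cell, and these counts were analyzed without change; the labels name Cell Ranger 6.1.2 and the file header 6.0.1. Groups came from the labels, and 0 columns of values had no sample. The 5 receptor genes, the ligand, partner and marker lists, the gates and the tests were chosen with earlier results of these data known.

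Following the study's methods, a cell was retained if it showed 1000 to 6000 genes and a mitochondrial share below 7.5%, and subclusters with outlying Scrublet-type doublet scores were removed (575, 432 and 386 cells in Kaede-green 1, Kaede-green 2 and Kaede-red). UMIs were summed per library and class. Each comparison had 6 sums and was fitted with edgeR 4.0.16 (R 4.3.3), glmQLFit and glmQLFTest, TMM factors, filterByExpr and library as a block, since both sums of a library come from 1 suspension, with Benjamini-Hochberg adjustment at 0.05 over all genes tested. Genes of the gates were left out of the results. The script was tested on simulated data. DESeq2 1.42.0, other scalings, filters and gates, a range of cell depths, and leaving out each library were alternatives. Kaede color, with 1 Kaede-red library, was not tested. Named genes other than the receptors were, by rule, up to 2 of each list with the largest change past the threshold each way, the 3 genes most like each receptor by Pearson's r, of which 1 is not reported here, and markers. Median UMIs per kept cell were 6420, 8336 and 11704, so that single sums of few cells rest on few UMIs; intervals are exact and cover counting error only. Proteins, the flow cytometry and other time points were not analysed here.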

Additional observations from a re-analysis of the deposited data

Results flagged for a closer look

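In 4 cases Kaede-red moved opposite to both Kaede-green libraries between the same classes, and none of these differences between colors was tested, since Kaede-red is 1 library. Of these 4, 3 concern *Crtam*. In CD8+ T cells against NK cells its log2 CPM difference was -0.71 in Kaede-red and 0.58 and 0.43 in Kaede-green 1 and Kaede-green 2, from at least 298 UMIs in each sum. In CD8+ T cells with *Pdcd1* and *Havcr2* against those with neither it was -1.13 in Kaede-red and 0.91 and 0.19 in the Kaede-green libraries, where the cells with both genes held 10.3 CPM in Kaede-red against 29.0 and 24.3 CPM. In ILC-like against NK cells it was -0.59 in Kaede-red and 0.54 and 0.05 in the others, on 21 to 68 UMIs in the ILC-like sums. *Pvrig* in *Itga1*+ against *Itgam*+ NK cells was at -0.49 in Kaede-red and 0.13 and 0.34 in the others, and the Kaede-red *Itgam*+ sum held 13 of its UMIs.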

How the results depend on the processing

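Of the single differences of a receptor under an alternative, 336 kept their direction and their side of the threshold, 11 lost it, 6 passed it anew and 14 changed direction, and no call reversed. All 5 receptors passed between Treg and CD8+ T cells in each alternative run. Between *Itga1*+ and *Itgam*+ NK cells 2 passed, and 0 did in cells of 4000 to 16000 UMIs, 1 with DESeq2 and 0 to 2 without 1 library; between ILC-like and NK cells 1 passed, and 2 did in cells of 4000 to 16000 UMIs and 1 to 2 without 1 library. The cause was not tested. The differences that changed direction had not passed: *Cd226* in *Itga1*+ NK cells with stricter gates (-0.041) and library size only (-0.015), *Pvrig* there with stricter gates (-0.035), and *Crtam* in ILC-like cells of 4000 to 16000 UMIs (0.072), in CD8+ T against NK cells with doublets kept (-0.0032) and stricter gates (-0.18), and in *Pdcd1* and *Havcr2* cells of 4000 to 16000 UMIs (0.60) and with library size only (0.00045). Without 1 library, *Crtam* ran from -0.41 to 0.17 in ILC-like cells, from -0.22 to 0.49 in CD8+ T against NK cells and from -0.51 to 0.35 in *Pdcd1* and *Havcr2* cells, *Pvrig* from -0.23 to 0.051 in ILC-like cells and *Tigit* from -0.12 to 0.61 in CD8+ T against NK cells. In cells of 4000 to 16000 UMIs the *Cd226* to *Tigit* ratio of ILC-like over NK cells was 2.37, the activating to inhibitory ratio 0.92 there and -0.13 in *Pdcd1* and *Havcr2* cells, and *Cd226* over *Cd96* turned to 0.048 in *Itga1*+ over *Itgam*+ NK cells. Receptors past 2-fold by color in NK cells went from 1 to 0 in such cells and with TMM scaling, in *Itgam*+ NK cells from 0 to 1 in such cells, and in other CD4+ T cells from 0 to 1 with doublets kept. Keeping the cells of both T cell gates in both classes, chosen after seeing the data, changed no call. No paired analysis was possible because the Kaede-green and Kaede-red groups share only 1 replicate number.

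Scaling by library size alone put the median log2 difference of all genes at -0.10, 0.06, 0.10 and 0.13 in 4 comparisons and moved the genes called higher and lower from 1678 and 1449 to 1369 and 1899 in *Itga1*+ NK cells, from 291 and 313 to 383 and 235 in ILC-like cells, from 1731 and 1441 to 2345 and 1072 in Treg against CD8+ T cells and from 2442 and 2325 to 3200 and 1722 in *Pdcd1* and *Havcr2* cells. Counts of all genes called that moved by over 1.5 times were, for *Itga1*+ NK cells (3127), 1154 in cells of 4000 to 16000 UMIs, 2070 with no block, 1942 with DESeq2, 1773 without Kaede-green 1 and 1932 without Kaede-green 2; for ILC-like cells (604), 94 with no block, 318 in 1 fit over all classes and 241 without Kaede-green 2; for CD8+ T against NK cells (3599), 1761 with no block and 1668 without Kaede-green 2; for Treg, 1935 against CD8+ T cells without Kaede-green 1 (3172), and against other CD4+ T cells (2443) 1242 with no block, 1186 with DESeq2 and 1278 without Kaede-green 2; and for *Pdcd1* and *Havcr2* cells (4767), 3147 without Kaede-green 2.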
